A study of Homo sapiens with 16 samples.

Results

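The HR effect of IM-9 was set against the mean HR effect of RPMI8226, KMS-11 and U266, where HR stands for hypoxia-resistant cells and the HR effect is the HR level minus the parental level of the same line, on the log2 scale. All 16 arrays in 8 groups entered, as the comparison spans the whole series. Of 12639 genes tested, 3889 (30.8%) departed in IM-9, and in 1153 of these (9.12% of the genes tested) the 3 myeloma effects had 1 sign; these 1153 genes are the members described. A departure is the IM-9 effect minus the myeloma mean, and a gene was called at an adjusted p under 0.05 (limma, Benjamini-Hochberg over all genes tested). The sign of the myeloma effects needed no call.

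RNA was measured on Affymetrix expression arrays. The groups were RPMI8226, KMS-11, U266 and IM-9 parental cells at 20% oxygen and RPMI8226-HR, KMS-11-HR, U266-HR and IM-9-HR cells at 1% oxygen, each after 24 hours and each with 2 arrays. As no HR cells were given at 20% oxygen and no parental cells at 1%, resistance cannot be told apart from the oxygen level. Each HR line is 1 derivative of its parent, and the labels do not give the cultures behind the 2 arrays of a group, so p-values measure only the spread between these arrays, which may be technical. The first 3 parental lines were derived from patients with multiple myeloma, the plasma cell cancer. The labels list IM-9 as a myeloma line too, but it is widely described as a B lymphoblastoid line transformed by Epstein-Barr virus (EBV).

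In well oxygenated cells, prolyl hydroxylases of the EGLN family mark the alpha subunit of the hypoxia-inducible factor (HIF) for destruction. When oxygen falls the subunit escapes, pairs with ARNT and binds hypoxia response elements built around the letters ACGTG or GCGTG. Its targets raise glucose uptake and glycolysis, hold pyruvate out of mitochondria, remove mitochondria and restrain mTOR signalling. A plasma cell tumour grows in bone marrow with little oxygen, whereas EBV-driven B cells rely on the NF-kB programme started by viral proteins.

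The array medians lay between 6.22 and 6.34 on the log2 scale, and the 2 arrays of a group correlated at 0.993 to 0.996 (Pearson r over all probe sets), above arrays of different lines (0.915 to 0.948). A level of 6.27, the median of the whole table, is used below as a mark for dim genes. In parental IM-9 all 6 EBV-associated B cell markers stood above it, with FCER2 at 12.2 and EBI3 at 9.38, against 0 to 2 of 6 in the parental myeloma lines. All 5 B cell markers that could be read were above it in parental IM-9, including MS4A1 at 11.3 and PAX5 at 8.48, against 2 or 3 in the parental myeloma lines. Plasma cell markers were above it in every group, 6 or 7 of 7, and myeloid markers in none, 0 of 6. RPMI8226 shared part of this set, with MS4A1 at 9.50 and FCER2 at 9.32 in parental cells, whereas CD22 and PAX5 stood above the mark in both IM-9 groups and under it in each parental myeloma line.

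Of the 1153 genes, 527 departed to a higher value in IM-9 (4.17% of the genes tested) and 626 to a lower value (4.95%). Over all called genes, 1738 were higher (13.8%) and 2151 lower (17.0%); with the arrays centred on their medians this split turned to 2008 higher and 1486 lower, and that of the genes with 1 myeloma sign to 611 higher and 431 lower. Of the 527 higher genes, 8 passed the filter on dim genes through the IM-9-HR arrays alone, so the filter kept them only because they were high there. Myeloma effects of 1 sign were 29.6% of the called genes and 27.6% of all genes tested, so agreement of the myeloma lines was about as frequent among departing genes as elsewhere. The IM-9 effect itself was called for 743 of the 1153 genes, and for 366 of those 743 no myeloma line was called on its own. A called departure of at least 2-fold was reached by 290 genes (2.29%) in all, and with 1 myeloma sign by 51 higher and 36 lower genes. Without the first IM-9-HR array the lower genes numbered 1400 in all and 410 with 1 myeloma sign.

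**Figure D1:**
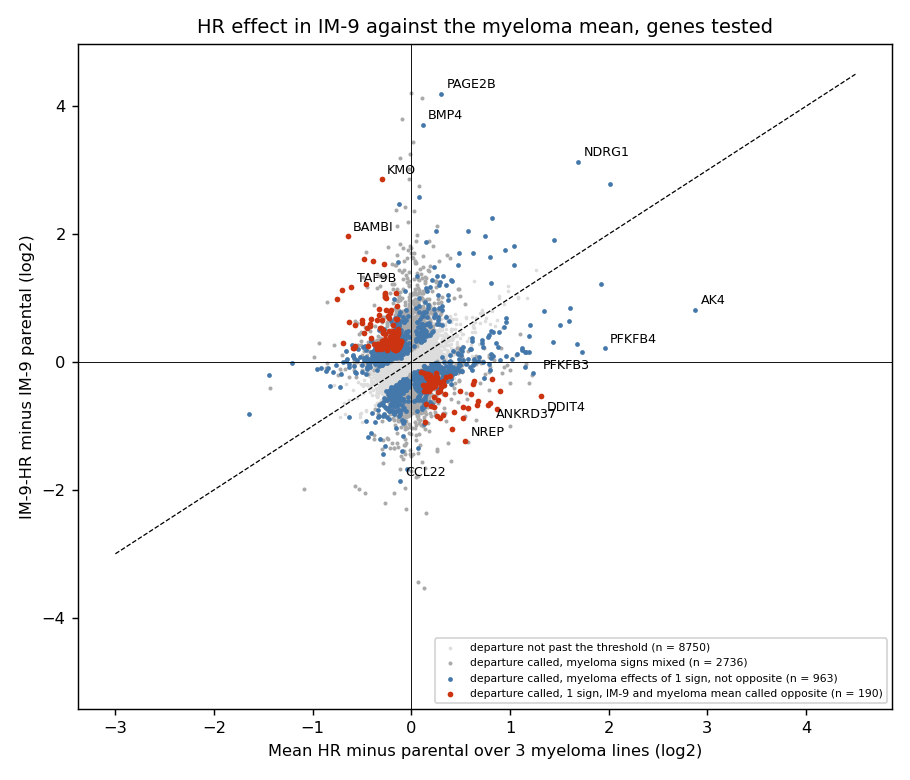
HR effect in IM-9 (vertical axis, log2) against the mean HR effect of the 3 myeloma lines (horizontal axis, log2), 1 point per gene tested; the dashed line marks equal effects. The 190 genes in red were called in opposite directions in IM-9 and in the myeloma mean, and AK4, PFKFB4 and PFKFB3 lie far to the right of the line.

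The same contrast was computed for each other line to show how many genes any 1 line has apart from the rest. RPMI8226 departed from the other 3 lines in 3381 genes (26.8%), U266 in 3122 (24.7%) and KMS-11 in 1203 (9.52%). With the other 3 effects of 1 sign the counts were 1262 for RPMI8226 (9.98%), 1384 for U266 (11.0%) and 460 for KMS-11 (3.64%). The 1153 genes of IM-9 thus lay within the range of the myeloma lines. The HR effect alone was called in 4506 genes for IM-9 (35.7%), 3288 for RPMI8226 (26.0%), 2287 for U266 (18.1%) and 1045 for KMS-11 (8.27%). With the line as the unit, where the spread among the 3 myeloma lines sets the error, limma called 13 genes (0.103%), and 1139 reached an unadjusted p under 0.05 (9.01%). Of the 13 genes, 8 were under 6.27 in all 12 myeloma arrays, where the spread among lines is that of dim signals, and 4 of those 8 passed the filter through IM-9-HR alone. The counts below therefore refer to these arrays, and the 13 genes are named where they come up.

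HIF targets were the clearest group in which the myeloma lines moved together and IM-9 stood apart. Of 44 listed targets 38 were tested. In the myeloma mean 36 of them rose (8.73% of all genes tested rose) and none fell, the lowest mean effect being 0.08. That mean draws on more arrays than 1 line does, so its SE is smaller. Line by line, 27 rose in RPMI8226, 26 in KMS-11 and 34 in U266, and none fell. Over all genes 26.0%, 8.27% and 18.1% were called in these lines in either direction. In IM-9 19 rose (14.4% of all genes) and 4 fell (21.3%). The departure was called lower for 24 and higher for 5, and for 9 it was not called; over all genes the shares were 17.0% and 13.8%. With myeloma effects of 1 sign 21 were lower and 3 higher. The median HR effect of the targets was 0.76 both in RPMI8226 and in KMS-11, 1.07 for U266 and 0.22 for IM-9, against medians between -0.06 and -0.01 over all genes. With the line as the unit 0 of the 38 targets were called lower by limma, and 10 had an unadjusted p under 0.05 in that direction.

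**Figure D2:**
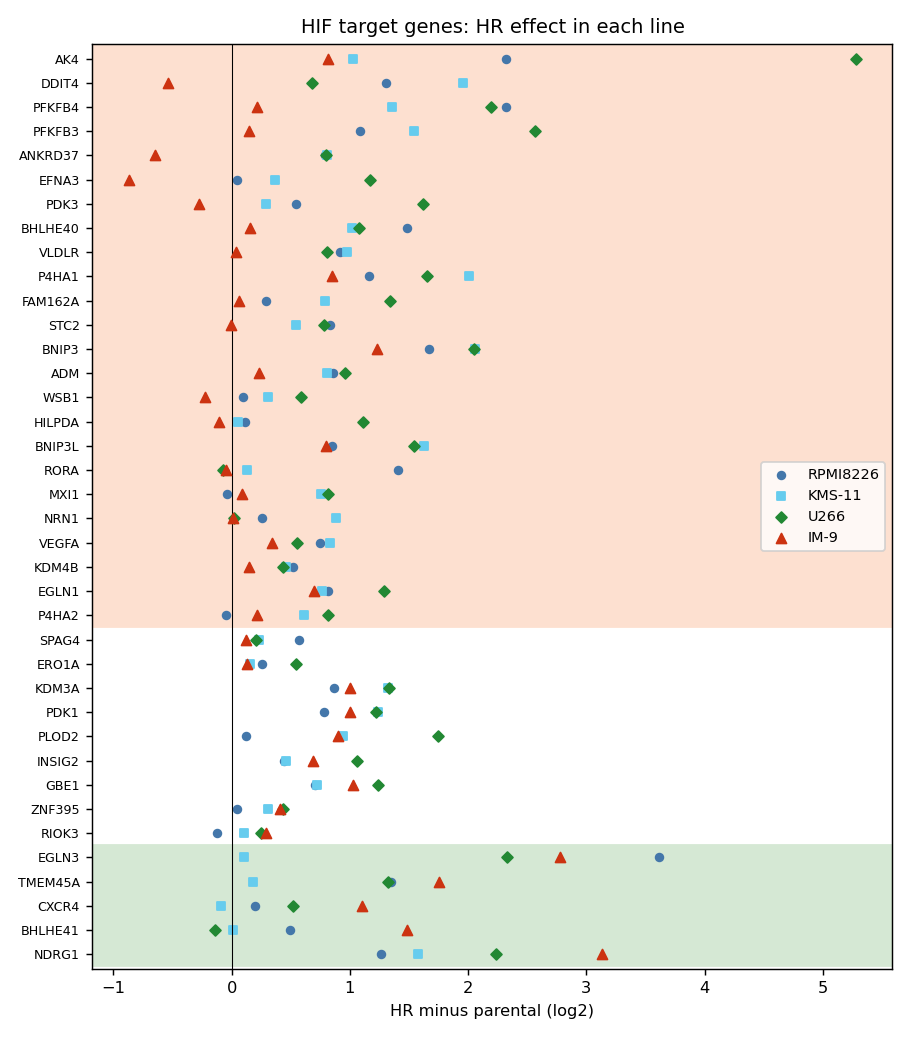
HR minus parental (log2, horizontal axis) of the 38 HIF targets tested, 1 symbol per line, ordered by the departure of IM-9. Orange bands mark the 24 targets called lower in IM-9, green bands the 5 called higher; the IM-9 triangle lies left of all 3 myeloma symbols for PFKFB3, PFKFB4, DDIT4 and ANKRD37.

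The promoters of 4 of these targets show the element in question: ANKRD37 and DDIT4 rose in the 3 myeloma lines and fell in IM-9, BHLHE40 rose in the myeloma lines and was not called in IM-9, and BNIP3 rose in all 4 lines. Each sequence is the 250 bases before the transcription start (RefSeq, GRCh38.p14), read 5′ to 3′ on the gene's strand, with ACGTG on either strand (ACGTG or CACGT) in capitals. The windows are chr4:185396591-185396840, plus strand, for ANKRD37, chr10:72273674-72273923, plus strand, for DDIT4, chr3:4979187-4979436, plus strand, for BHLHE40, and chr10:131981924-131982173, minus strand, for BNIP3. A CACGTG holds the motif on both strands, with the matches overlapping.
ANKRD37: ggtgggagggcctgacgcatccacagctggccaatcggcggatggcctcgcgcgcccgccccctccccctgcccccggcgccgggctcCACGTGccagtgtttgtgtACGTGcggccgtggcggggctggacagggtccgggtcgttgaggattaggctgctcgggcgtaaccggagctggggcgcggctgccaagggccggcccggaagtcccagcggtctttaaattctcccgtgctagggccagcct
DDIT4: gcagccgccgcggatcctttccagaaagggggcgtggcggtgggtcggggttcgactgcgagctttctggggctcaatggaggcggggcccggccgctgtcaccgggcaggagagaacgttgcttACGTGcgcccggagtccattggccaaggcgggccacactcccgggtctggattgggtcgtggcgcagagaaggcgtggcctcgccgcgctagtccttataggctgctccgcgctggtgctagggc
BHLHE40: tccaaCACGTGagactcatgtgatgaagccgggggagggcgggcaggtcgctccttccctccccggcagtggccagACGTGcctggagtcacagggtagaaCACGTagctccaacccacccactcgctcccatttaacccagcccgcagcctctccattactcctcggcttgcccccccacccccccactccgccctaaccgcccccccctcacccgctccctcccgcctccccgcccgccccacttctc
BNIP3: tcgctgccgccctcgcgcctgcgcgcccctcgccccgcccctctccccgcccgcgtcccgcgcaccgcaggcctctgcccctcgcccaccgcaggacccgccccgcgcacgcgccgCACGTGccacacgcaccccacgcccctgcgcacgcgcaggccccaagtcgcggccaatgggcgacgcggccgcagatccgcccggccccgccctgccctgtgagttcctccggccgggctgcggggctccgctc
The motif occurred 3 times in the window of ANKRD37, 1 time in DDIT4, 4 times in BHLHE40 and 2 times in BNIP3. It was present in 18.7% of the 27305 promoters of the table and in 23.3% of the 10055 tested genes that had one. Among HIF targets it was present in 11 of 21 that departed lower in IM-9 (52.4%) and in 6 of 11 of the others (54.5%). The departing targets thus held the motif about as often as the other targets. The windows of PFKFB3 and PFKFB4, described next, held no ACGTG on either strand (0 matches each). Only ACGTG was counted, in these windows and in the shares above. The GCGTG form, which both windows hold on 1 strand or the other, was left out of every count. A match is a description of letters and not a measured binding site.

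PFKFB3 and PFKFB4 encode kinase-phosphatases that set the level of a fructose bisphosphate which activates glycolysis. The 2 PFKFB3 values rose from 7.84 and 7.83 to 8.85 and 8.99 in RPMI8226, from 7.80 and 7.82 to 9.36 and 9.34 in KMS-11, and from 6.49 and 6.35 to 9.02 and 8.96 in U266. In IM-9 they were 8.45 and 8.59 in parental cells and 8.67 and 8.67 in HR cells. Parental and HR arrays did not overlap in any line, but the IM-9 groups were 0.15 apart (SE 0.07, adjusted p = 0.12, limma) and its parental arrays already stood above every parental myeloma array. The departure of PFKFB3 was -1.58 (SE 0.08, adjusted p = 4.6e-08, limma). PFKFB4 behaved alike, with HR effects of 2.32, 1.36 and 2.20 in RPMI8226, KMS-11 and U266 and 0.22 in IM-9 (adjusted p = 0.077 in IM-9), and a departure of -1.74 (SE 0.10).

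AK4, a mitochondrial adenylate kinase, had the largest lower departure among the 1153 genes, -2.06 (SE 0.13, adjusted p = 2.79e-07, limma). Its U266 arrays went from 5.17 and 4.72 to 10.21 and 10.25, its RPMI8226 arrays from 7.39 and 7.54 to 9.74 and 9.84, and its KMS-11 arrays from 6.07 and 6.0 to 7.05 and 7.08. The IM-9 arrays rose from 8.91 and 9.06 to 9.83 and 9.78, so its parental level was above all 3 myeloma lines and its HR level near those of RPMI8226 and U266 but above that of KMS-11. AK4 thus rose in every line, and its KMS-11 effect of 1.03 and IM-9 effect of 0.81 (SE 0.11 each) were close. The departure rested largely on U266, where AK4 rose by 5.28, and was -0.86 without that line in the myeloma mean.

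DDIT4, which restrains mTOR signalling, and ANKRD37, an ankyrin repeat protein, moved in opposite directions. The ANKRD37 arrays rose from 6.51 and 6.6 to 7.31 and 7.38 in RPMI8226, from 6.75 and 6.85 to 7.6 and 7.62 in KMS-11, and from 6.90 and 6.88 to 7.72 and 7.67 in U266. In IM-9 they fell from 9.52 and 9.65 to 8.87 and 9.01. The 3 myeloma effects, 0.79, 0.81 and 0.80, were nearly equal, and both IM-9 groups lay above every myeloma array; the departure was -1.45 (SE 0.08, adjusted p = 1.09e-07, limma). DDIT4 rose by 1.3, 1.96 and 0.68 in RPMI8226, KMS-11 and U266 and fell by 0.54 in IM-9, from 8.94 and 9.04 to 8.41 and 8.50. Its departure was -1.86 (SE 0.11, adjusted p = 2.12e-07, limma).

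BHLHE40, a transcriptional repressor, VLDLR, a lipoprotein receptor, and STC2, a secreted glycoprotein, rose in each myeloma line and were not called in IM-9. VLDLR and STC2 belong to the list of ATF4 and the amino acid response. BHLHE40 rose by 1.49, 1.02 and 1.08 in RPMI8226, KMS-11 and U266, and its IM-9 arrays were 8.35 and 8.42 in parental and 8.50 and 8.57 in HR cells (effect 0.15, adjusted p = 0.17, limma). VLDLR rose by 0.91, 0.98 and 0.81, with an IM-9 effect of 0.03, and STC2 by 0.83, 0.55 and 0.78, with an IM-9 effect of -0.01. Both were dim in some groups: VLDLR lay under 6.27 in both RPMI8226 groups and in parental KMS-11, and the STC2 means were under it in parental RPMI8226 and KMS-11. ADM, the vasodilator peptide adrenomedullin, rose by 0.86, 0.81 and 0.96 in the myeloma lines and had an effect of 0.23 in IM-9 (adjusted p = 0.091, limma). EFNA3, an ephrin ligand, fell by 0.87 in IM-9 and had myeloma effects of 0.05, 0.36 and 1.17.

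Other targets rose in IM-9 as well. BNIP3, a receptor for removing mitochondria, rose in IM-9 from 9.27 and 9.44 to 10.56 and 10.60, an effect of 1.23 beside 1.67, 2.05 and 2.05 in RPMI8226, KMS-11 and U266. P4HA1, a collagen prolyl hydroxylase, BNIP3L, EGLN1 and VEGFA likewise rose in all 4 lines, with departures between -0.76 and -0.26. PDK1, which blocks entry of pyruvate into mitochondria, rose by 1.00 in IM-9 beside 0.78, 1.24 and 1.22, and its departure of -0.08 (SE 0.08, adjusted p = 0.45, limma) was not called. KDM3A, a histone demethylase, rose by 1.00 in IM-9 beside 0.86, 1.32 and 1.33, and its departure was not called either (-0.17, SE 0.10, adjusted p = 0.20, limma).

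NDRG1, a stress-responsive gene, went the other way. Its arrays rose from 9.24 and 9.34 to 10.51 and 10.60 in RPMI8226, from 9.79 and 9.78 to 11.39 and 11.33 in KMS-11, and from 9.13 and 9.10 to 11.36 and 11.34 in U266. In IM-9 they rose from 6.55 and 6.07 to 9.45 and 9.43. The IM-9 effect of 3.13 was the largest of the 4, from a parental level about the mark for dim genes to an HR level between the parental myeloma arrays of KMS-11 and those of RPMI8226; the departure was 1.44 (SE 0.13, adjusted p = 4.41e-06, limma). EGLN3, an oxygen-sensing prolyl hydroxylase, rose by 3.61 in RPMI8226, 2.33 in U266 and 2.78 in IM-9 and had an effect of 0.10 in KMS-11. TMEM45A rose by 1.76 in IM-9 beside 1.35, 0.18 and 1.32. BHLHE41, a repressor related to BHLHE40, and CXCR4, the chemokine receptor that holds plasma cells in bone marrow, rose by 1.48 and 1.10 in IM-9, while their myeloma effects had mixed signs.

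The level in parental cells differed along with these departures. Of the 24 HIF targets with a lower departure, 12 were higher in parental IM-9 than in all 3 parental myeloma lines (50%), against 31.2% of the 626 genes departing lower with 1 sign and 18.8% of all genes tested, and 6 of the 24 were lower than in all 3 (25%, against 21.1% of all genes). At 1% oxygen 12 of the same 24 were lower in IM-9-HR than in all 3 myeloma HR lines (50%), near the 44.6% of the 626 genes and against 27.7% of all genes. Of the 5 targets with a higher departure, 3 were lower in parental IM-9 than in all 3 myeloma lines. The parental arrays enter the departure, so these shares are a description, and the part of the starting level in the departures was not tested.

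Glycolysis genes departed to lower values too, but here IM-9 stood close to RPMI8226. The list had a median HR effect of 0.16 for IM-9 and 0.17 for RPMI8226, each with 8 genes risen and 1 fallen, beside 0.37 for KMS-11 and 0.54 for U266. Of 18 enzymes and transporters tested, 11 departed lower in IM-9 (17.0% of all genes did), 10 of them with myeloma effects of 1 sign, and none departed higher (0 also at an unadjusted p under 0.05, limma); the median departure was -0.29, against -0.05 over all genes. HK2, the inducible hexokinase, rose by 0.72, 0.52 and 3.06 in RPMI8226, KMS-11 and U266. Its IM-9 arrays were 9.31 and 9.42 in parental and 9.72 and 9.65 in HR cells, an effect of 0.32 that was not called (adjusted p = 0.057, limma), and its departure was -1.12 (SE 0.14), or -0.30 without U266 in the myeloma mean. The glucose transporter gene SLC2A1 rose in all 4 lines, by 1.35, 0.95, 2.23 and, in IM-9, 0.58, and its departure was -0.92 (SE 0.14, adjusted p = 0.000299, limma), or -0.56 without U266. PGM1, which links glycogen to glycolysis, rose by 0.75, 0.36 and 0.56 in the myeloma lines and had an effect of -0.03 in IM-9. ALDOC, GPI, PGK1, PFKP and LDHA rose in IM-9, by 0.17 to 0.58. Without U266 in the myeloma mean 7 glycolysis genes were called lower, 6 of them among the 11, and with the line as the unit limma called 0, with 2 at an unadjusted p under 0.05. TXNIP, which limits glucose uptake, rose by 0.58, 1.59 and 2.63 in the myeloma lines and by 0.65 in IM-9, a departure of -0.95, or -0.44 without U266.

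**Figure D3:**
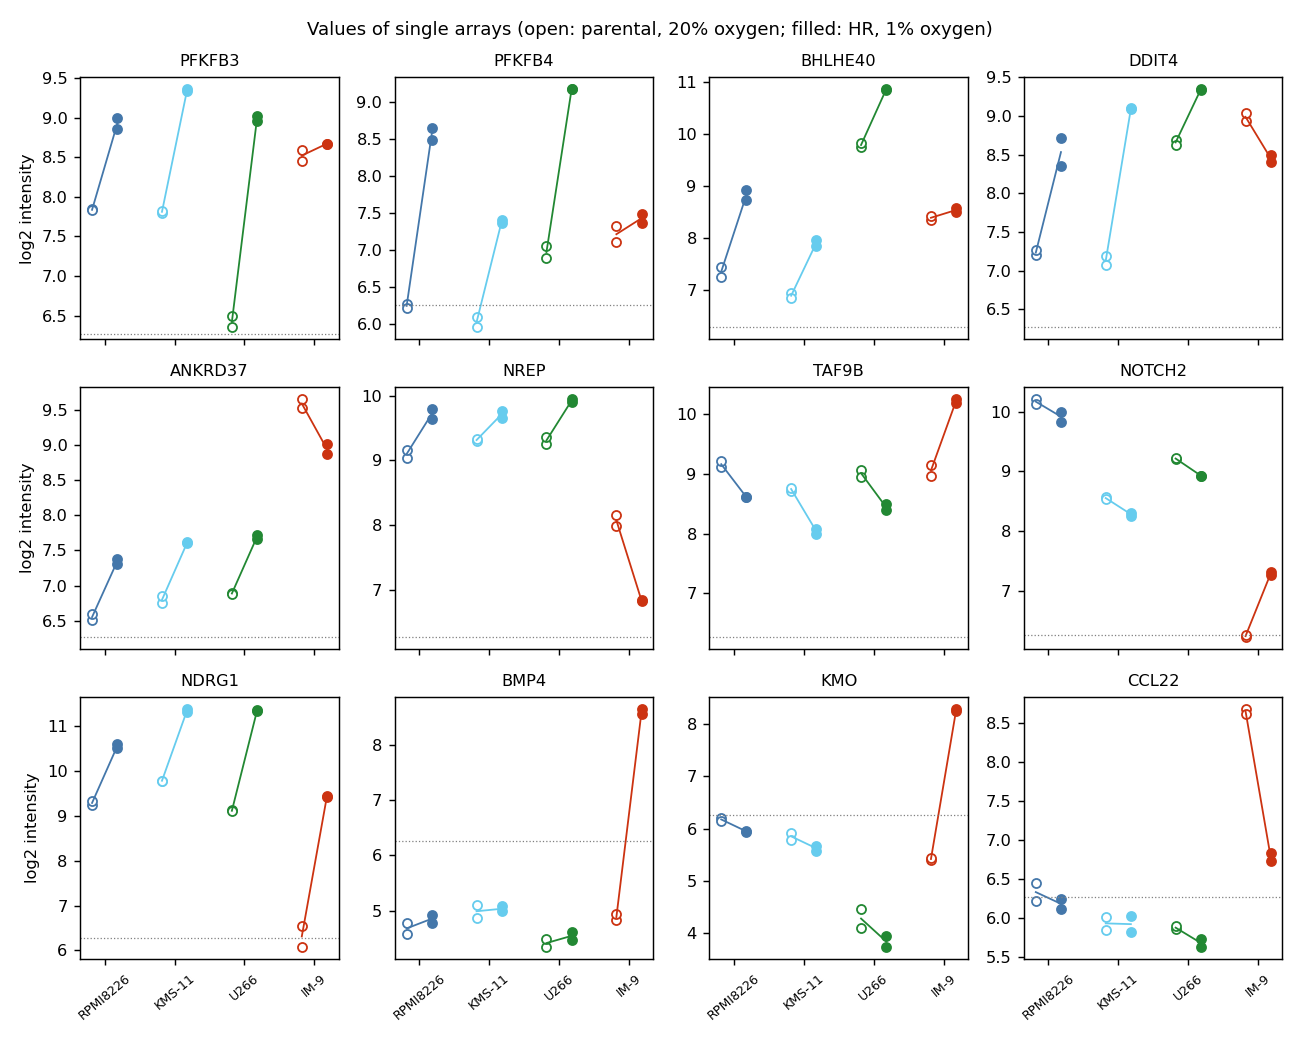
Log2 intensity (vertical axis) of single arrays for 12 genes in the 4 lines; open circles are parental cells, filled circles HR cells, lines join group means, and the dotted line marks 6.27. PFKFB3, PFKFB4 and BHLHE40 rise steeply in the myeloma lines and little in IM-9, DDIT4, ANKRD37 and NREP fall in IM-9, and TAF9B and NOTCH2 rise in IM-9 alone.

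Among genes called the same way in each of the 3 myeloma lines, 67 rose (0.530%) and 32 fell (0.253%). Of the 67, 44 departed in IM-9: 17 were not called in IM-9, 21 rose there too, of which 6 rose more and 15 less, and 6 fell. Of the 32 that fell, 18 departed: 8 were not called in IM-9, 2 fell further and 8 rose. The myeloma arrays enter both the choice of these genes and the departure, so the counts are a description. S100A10, the partner of annexin A2, rose by 0.83, 0.71 and 2.17 in the myeloma lines, and its IM-9 arrays, 4.48 and 4.83 in parental and 4.55 and 4.43 in HR cells, overlapped at a dim level; its departure was -1.40, or -0.93 without U266. The complement receptor gene C3AR1 rose by 1.37, 0.57 and 1.43 and was likewise dim in IM-9, at 4.79 to 5.08. CEP128, a centriole protein encoded on chromosome 14, rose by 0.35, 0.35 and 1.16 and by 1.70 in IM-9.

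In 190 genes (1.50%) the IM-9 effect and the myeloma mean were both called and opposite, 116 of them higher in IM-9 (0.918%) and 74 lower (0.585%). The counts leaned on both IM-9-HR arrays: without the first they were 71 and 47, without the second 73 and 49. Of the 190, 14 were also called in each myeloma line on its own.

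TAF9B, a subunit of the general transcription machinery, was among the opposite genes with a rise in IM-9. Its arrays fell from 9.11 and 9.21 to 8.61 and 8.61 in RPMI8226, from 8.72 and 8.77 to 8.0 and 8.08 in KMS-11, and from 9.07 and 8.95 to 8.39 and 8.49 in U266. In IM-9 they rose from 8.97 and 9.14 to 10.25 and 10.19. The parental IM-9 arrays overlapped those of RPMI8226 and U266, and the IM-9-HR arrays lay above every other array; the departure was 1.78 (SE 0.09, adjusted p = 2.6e-08, limma), a 3.42-fold difference. NOTCH2, a receptor of the Notch family that guides B cell fates, fell by 0.25, 0.27 and 0.28 in the myeloma lines and rose by 1.05 in IM-9, from 6.23 and 6.27, a dim level, to 7.27 and 7.32. FUCA1, a lysosomal fucosidase, fell by 0.26, 0.31 and 0.35 and rose by 0.52 in IM-9.

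CPT1A, which carries fatty acids into mitochondria, fell by 0.34 in RPMI8226 and 0.40 in U266, with an effect of -0.26 in KMS-11 that was not called (adjusted p = 0.067, limma). It rose by 0.73 in IM-9, where it stayed at 6.58 and 6.75, more than 2 log2 units under each myeloma line. BAMBI, a decoy receptor that dampens TGF-beta and BMP signals, rose in IM-9 from 5.69 and 5.24 to 7.5 and 7.37 and had effects of -0.37, -0.54 and -1.02 in RPMI8226, KMS-11 and U266, called in the latter pair. NT5E (CD73), which makes extracellular adenosine, rose by 1.60 in IM-9 and had effects of -0.34, -0.32 and -0.77. It was bright only in U266 and IM-9-HR, as RPMI8226 and KMS-11 lay under 5.5. MICAL2, an actin-oxidising enzyme, rose by 0.66 in IM-9, and REEP1, which shapes the endoplasmic reticulum, by 0.29, still dim at 5.56 and 5.45.

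NREP, the neuronal regeneration related protein, came after ANKRD37 and DDIT4 among the opposite genes that fell in IM-9, ranked by the smallest absolute effect over the lines. Its arrays rose from 9.04 and 9.16 to 9.64 and 9.80 in RPMI8226, from 9.30 and 9.33 to 9.66 and 9.77 in KMS-11, and from 9.26 and 9.36 to 9.90 and 9.95 in U266. In IM-9 they fell from 7.99 and 8.16 to 6.84 and 6.83, below every myeloma array, and the departure was -1.79 (SE 0.09, adjusted p = 3.9e-08, limma). PDK3, a further pyruvate dehydrogenase kinase, rose by 0.55 in RPMI8226 and 1.62 in U266 and fell by 0.27 in IM-9, and its KMS-11 effect of 0.29 was not called; its departure was -1.09, or -0.69 without U266. PIK3C3, the lipid kinase of autophagy and endosomes, rose by 0.47, 0.34 and 0.37 and fell by 0.22 in IM-9.

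MT2A, a metallothionein that binds zinc and copper, rose by 0.24, 0.26 and 1.51 in the myeloma lines and fell by 0.67 in IM-9, from 10.58 and 10.54 to 9.91 and 9.87. Other members of the family, chosen after their values were seen, fell in IM-9 as well: MT1X by 0.91, MT1G by 0.85, MT1E by 0.78 and MT1H by 0.61. In the myeloma lines they were of mixed sign, except for MT1H, with MT1G at -0.66 in RPMI8226 and 2.11 in U266. MT1F, MT1IP and MT1DP also fell in IM-9, by 0.48, 0.51 and 0.32, whereas MT1B (-0.17) and MT1P3 (-0.29) were not called there. MT1F fell by 1.64 in RPMI8226, and the departures of MT1F (-0.16) and MT1P3 (-0.33) were not called. Apart from MT1P3, on chromosome 20, these genes are closely related copies on chromosome 16, and probes may read more than 1 of them.

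Genes that fell in each myeloma line and not in IM-9 included HSPA5, the major chaperone of the endoplasmic reticulum, and its partner DNAJB11. HSPA5 fell by 0.36, 0.42 and 0.32 in RPMI8226, KMS-11 and U266, and its IM-9 arrays were 11.59 and 11.62 in parental and 11.68 and 11.67 in HR cells (effect 0.07, adjusted p = 0.45, limma). The departure was 0.44 (SE 0.08, adjusted p = 0.00108, limma). DNAJB11 fell by 0.47, 0.28 and 0.29 and rose by 0.19 in IM-9 (adjusted p = 0.049, limma). Of 22 genes of the unfolded protein response, 11 departed higher in IM-9 (13.8% of all genes did). None departed lower (0 also at an unadjusted p under 0.05, limma), whereas 17.0% of all genes did. The median departure was 0.23, against -0.05 over all genes, but of the 11 only HSPA5 and DNAJB11 had myeloma effects of 1 sign. HERPUD1 and PDIA4 rose in IM-9 by 0.43 and 0.22, with mixed myeloma signs, while HYOU1 and SDF2L1 fell by 0.19 and 0.27 in IM-9, and their departures were not called. KCNS3, a potassium channel subunit, fell by 1.47, 0.52 and 0.87 in the myeloma lines and was at 4.83 to 5.01, a dim level, in IM-9. CRTC3, a coactivator of CREB, fell by 0.35, 0.44 and 0.66 and had an effect of 0.03 in IM-9.

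The 6 largest higher departures with 1 myeloma sign were those of BMP4, KMO, MAGEA1, PAGE2B, SSX6P and BAMBI, described above. Each rose in IM-9, and of their myeloma effects only those of BAMBI in KMS-11 and U266 and of KMO in U266 were called, all as falls. BMP4, a secreted growth factor, was under 5.2 in all 12 myeloma arrays and at 4.83 and 4.94 in parental IM-9, and stood at 8.65 and 8.55 in IM-9-HR. Its departure was 3.60 (SE 0.12, adjusted p = 9.67e-10, limma), or 12.1-fold. BMP4 passed the filter on dim genes through the IM-9-HR arrays alone, so its call with the line as the unit (adjusted p = 0.019, limma) rests on a spread among dim myeloma values and adds no support. ID3, a common BMP target, rose by 1.53 in IM-9 and BAMBI, another, by 1.97, whereas ID1 (0.10) and SMAD6 (-0.02) were not called and ID2 and SMAD7 fell by 0.59 and 0.40. These were looked at after BMP4 was seen.

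KMO, which makes hydroxykynurenine from the tryptophan product kynurenine, rose in IM-9 from 5.40 and 5.43 to 8.30 and 8.25, and its myeloma effects were -0.23, -0.23 and -0.44. Its departure was 3.16 (SE 0.12, adjusted p = 4.6e-09, limma). KMO was under 6.27 in every array outside IM-9-HR, so it too passed the filter through IM-9-HR alone, and the same holds for its call with the line as the unit. KYNU, the hydrolase of the same pathway, chosen after KMO was seen, fell by 1.38 in IM-9. GBP2, an interferon-induced GTPase, rose by 1.88 in IM-9, from 7.05 and 7.5 to 9.02 and 9.28, and lay under 4.7 in every myeloma array. Of 35 interferon response genes tested, 10 departed higher and 9 lower, beside 13.8% and 17.0% of all genes. In IM-9 4 of the 35 rose and 13 fell, beside 14.4% and 21.3% of all genes. Among the myeloma lines 8 fell in RPMI8226, 1 in KMS-11 and 25 in U266, where the median effect was -0.60. Over all genes 26.0%, 8.27% and 18.1% were called in these lines in either direction. The fall in U266 thus enters the departures of this list.

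Cancer-testis genes of chromosome X, which most adult tissues keep silent, gave 3 of the 6 largest higher departures named above. Of 16 tested members of the MAGEA, MAGEC, PAGE and SSX families, looked at after these values were seen, 9 departed higher (13.8% of all genes did), 1 lower and 6 were not called. PAGE2B rose in IM-9 from 6.18 and 6.5 to 10.50 and 10.57, near the level of U266, which stood between 10.86 and 11.04 in all 4 arrays. MAGEA1 rose by 2.58 and SSX6P by 2.46 in IM-9, with no myeloma effect called. All 3 were called with the line as the unit. So were MAGEC2, SSX3 and FMR1NB, which rose by 4.21, 4.14 and 3.43 in IM-9 with mixed myeloma signs. SSX3 and SSX6P were under 6.27 in all 12 myeloma arrays, so their calls rest on a spread among dim values. The 1 lower gene was PAGE1, which went from 5.07 and 5.22 to 9.97 and 10.06 in RPMI8226 and stayed at 4.75 or lower in every array of the other lines, so that it passed the filter through RPMI8226-HR alone; its departure was -1.40 (SE 0.10, adjusted p = 9.27e-07, limma). The departures of MAGEA4, MAGEA8, MAGEA10, SSX1 and SSX8P were -0.34, 0.032, 0.14, 0.18 and 0.36 and were not called, nor were they with quantile normalization or centring of the arrays. That of PAGE5 was 0.32 and was called with quantile normalization only, which gave 10 higher and 1 lower. Some members of the PAGE, SSX and MAGE families are closely related in sequence, and probes may read more than 1. The other genes called with the line as the unit were CNBD1, MUC13, ROBO2 and CYRIA, which rose in IM-9 by 3.01, 2.86, 3.81 and 2.42, and ITM2A, which fell by 3.45, all with mixed and small myeloma effects. CNBD1 and CYRIA passed the filter through IM-9-HR alone, and MUC13 and ROBO2 were under 6.27 in all 12 myeloma arrays, so these 4 calls rest on dim myeloma values as well.

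Genes of EBV-driven B cell activation were compared because their markers set IM-9 apart. Of 20 tested, 8 departed lower and 2 higher, beside 17.0% and 13.8% of all genes, with a median of -0.15 against -0.05 over all genes. Of these 5 and 1 had myeloma effects of 1 sign, beside 4.95% and 4.17% of all genes. CCL22, a chemokine of activated B cells, fell in IM-9 from 8.68 and 8.62 to 6.73 and 6.83, while the myeloma arrays lay between 5.63 and 6.45 throughout; the departure was -1.75 (SE 0.11, adjusted p = 2.79e-07, limma). EBI3, named for its induction by EBV, fell by 1.39 in IM-9, from 9.25 and 9.51 to 7.92 and 8.06, and was dim in the myeloma lines. The chemokine receptor gene CCR7 rose by 0.79. FCER2 (CD23) was not called in IM-9 (-0.17) and fell in RPMI8226 by 1.31, and its departure was 0.40, or 0.024 without RPMI8226.

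NF-kB factors and targets were mixed as well, with 9 of 23 lower and 3 higher. Over all genes 17.0% were lower and 13.8% higher, so the higher count was near the share of all genes and the lower count above it. CCL22 and EBI3, described above, were among the 9 lower genes. CCL3, an inflammatory chemokine, rose in IM-9 from 8.03 and 8.18 to 9.63 and 9.75 and fell in U266 from 12.51 and 12.44 to 11.76 and 11.75, and its departure was 1.97 (SE 0.14, adjusted p = 4.59e-07, limma). REL and CD83 rose by 0.26 and 0.43 in IM-9. Of 20 B cell identity genes 4 departed higher and 5 lower, and of 20 plasma cell identity genes 6 and 7. Both lists were above the shares of all genes, 13.8% and 17.0%, in each direction. TNFRSF13B (TACI), a receptor for plasma cell survival factors, fell by 0.68 in IM-9 and had myeloma effects of 0.22, 0.34 and 0.05. The 6 T and NK cell genes tested had a median departure of -0.03, and of 2 myeloid genes CD68, a lysosomal protein, rose by 1.11 in IM-9.

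Several large departures did not meet the condition of 1 myeloma sign. Of 18 cholesterol synthesis genes 17 departed lower (17.0% of all genes did), but the list's median HR effect was 0.67 for RPMI8226, -0.30 for KMS-11, -0.41 for U266 and -1.26 for IM-9, and only TM7SF2 had myeloma effects of 1 sign. HMGCS1, which starts the mevalonate pathway, rose by 2.07 in RPMI8226 and fell by 0.61, 1.00 and 2.36 in KMS-11, U266 and IM-9. Of 15 fatty acid synthesis genes 14 departed lower, 2 with 1 sign, and SCD, the desaturase, fell by 1.80 in IM-9. Of 22 mitosis genes 13 departed lower, 1 with 1 sign, and of 24 DNA replication genes 12 lower and 1 higher. Falls in both lists were not confined to IM-9. For mitosis 14 genes fell in IM-9 (median HR effect -0.42) and 16 in RPMI8226 (-0.33), while U266 had 6 risen (0.20). For DNA replication KMS-11 had 19 fallen (-0.33), IM-9 13 (-0.22) and RPMI8226 7 (-0.13), while U266 had 16 risen (0.39). The rises in U266 thus enter the departures of both lists. Of 25 genes of ATF4 and the amino acid response 14 departed lower, with 3 of 1 sign, VLDLR, STC2 and CTH. CTH, the cystathionine lyase, fell by 0.41 in U266 and 1.44 in IM-9. Of 9 MHC class II genes 6 departed lower, with only CIITA, their master regulator, of 1 sign. Without U266 in the myeloma mean 6 mitosis genes were called lower, all among the 13.

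**Figure D4:**
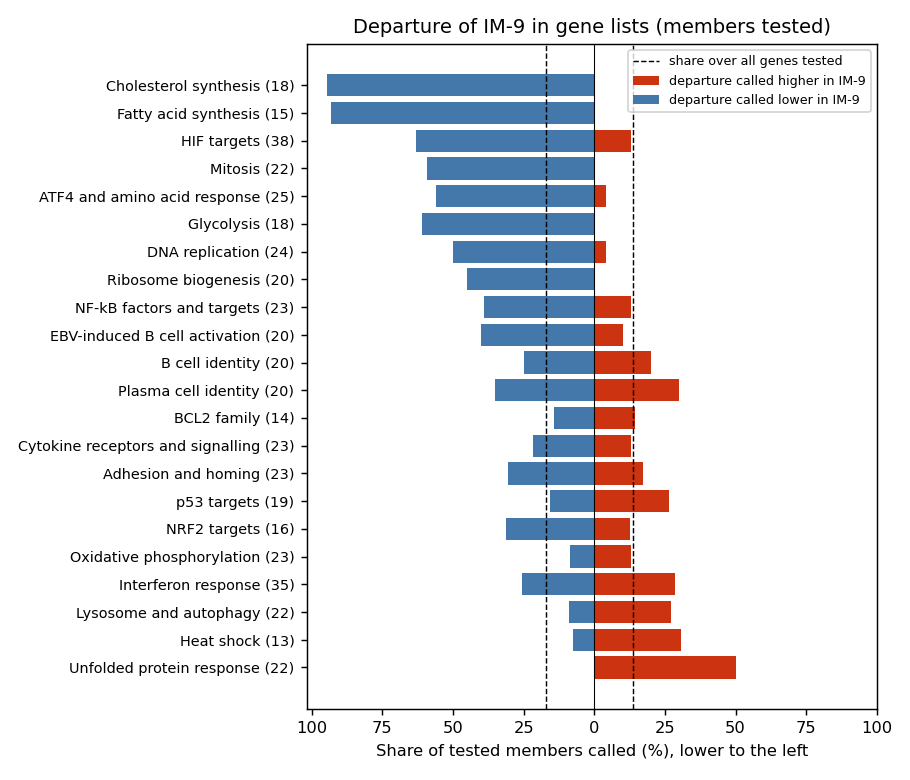
Share of tested members (horizontal axis, %) whose departure was called higher (red, right) or lower (blue, left) in IM-9, for gene lists with at least 10 members tested; dashed lines mark 13.8% and 17.0%, the shares over all genes tested. Lists are ordered by median departure; cholesterol synthesis has the largest share lower and the unfolded protein response the largest share higher.

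Position was a further feature that the choice of genes did not use. On chromosome 14, 124 of 391 genes tested departed higher in IM-9 (31.7%, against 13.8% of all genes) and 45 lower. Cut into blocks of about 50 neighbouring tested genes, the genome gave 255 blocks with a median of 11.8% higher. The fifth block of chromosome 14, from VTI1B to NEK9, had 28 of 49 higher (57.1%, median departure 0.45), and the sixth, from TMED10 to CPSF2, 29 of 49 (59.2%, median 0.37). The first 4 blocks of the chromosome had 6.12%, 18.4%, 20.4% and 14.3%, and the last 2 blocks 42.9% and 35.4%. The highest share outside chromosome 14 was 44.9%, in block 24 of chromosome 1, from PACC1 to ACBD3. Blocks 23, 25 and 26 of chromosome 1 had 40.8%, 22.4% and 36.7%, and block 12 of chromosome 3 had 43.8%. Such shares were near those of the last 2 blocks of chromosome 14. In the lower direction the ninth block of chromosome 4, from MSMO1 to DUX4, had 25 of 49 genes (51.0%, median departure -0.37), against a median of 16.3% over all blocks. Its median HR effect was -0.21 in IM-9 and 0.13, 0.0044 and 0.06 in RPMI8226, KMS-11 and U266. In the fifth and sixth blocks of chromosome 14 the median HR effect was 0.35 and 0.40 in IM-9 and between -0.06 and 0.04 in each myeloma line. Myeloma lines had blocks of similar size elsewhere, with a median HR effect of -0.51 in the tenth block of chromosome 3 and -0.42 in the second of chromosome 13 in RPMI8226, and -0.38 in the second of chromosome 20 in U266. CEP128 lies in the sixth block and BMP4 in the third.

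**Figure D5:**
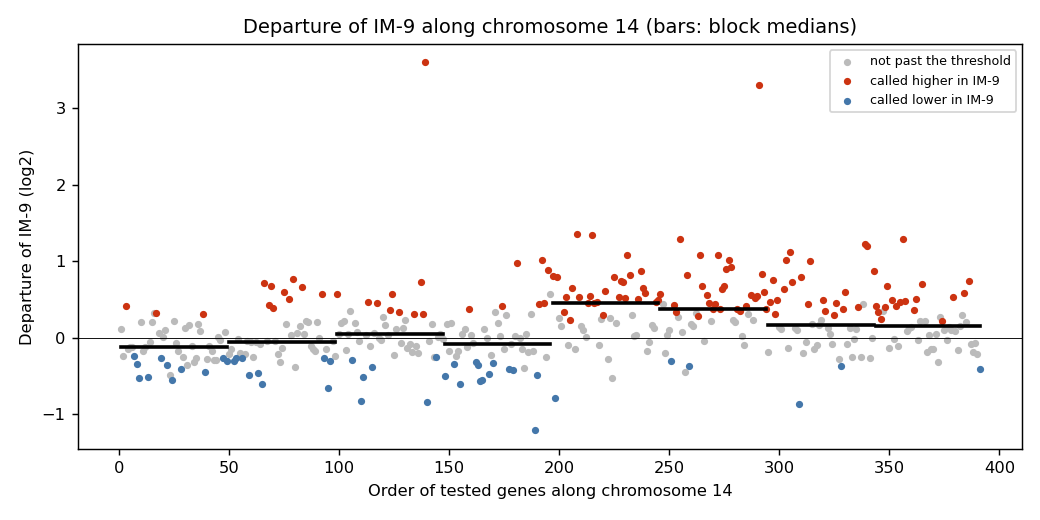
Departure of IM-9 (log2, vertical axis) of the 391 tested genes of chromosome 14 in their order along it (horizontal axis); red and blue points were called higher and lower, and black bars are the medians of 8 blocks. The medians of the fifth and sixth blocks, 0.45 and 0.37, stand above those of the first 4 blocks.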

How the data were processed

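Log2 intensities of 33297 probe sets on 16 arrays were used as deposited, summarised by the authors; Affymetrix Expression Console 1.3.0 is named per the submitters' processing notes, and the normalization method is not given in the sources used here. The design text and the platform table name different array types, but all 21214 probe sets of the platform table were found in the deposited table, so its names were used. Of these, 19460 carried 1 symbol (19429 matched RefSeq) and 1754 several; the other 12083 probe sets of the deposited table are not named here. For the 769 of 18417 genes with several probe sets the brightest was kept, and 12639 genes above 6.27 in at least 2 arrays were tested. The 8 groups were fitted in R 4.3.3 with limma 3.58.1 (2-sided), after tests on simulated data. For arrays, their number limits the precision.

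The members and the gene lists were chosen with earlier results of these data known. Genes were named by rule from those departing with 1 myeloma sign: the 8 opposite in each direction with the largest smallest effect over lines; of genes called in each myeloma line, the 8 in each direction with the largest departure among those not called in IM-9, and 5 among those called the same way; the 6 largest departures in each direction; and up to 5 per list by p-value, with list members needed to show how it went. Alternatives covered filters, scaling, weights, probe set choice, the replicate number, the line as unit, and leaving out arrays or lines.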

Additional observations from a re-analysis of the deposited data

Results flagged for a closer look

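The following genes had a called departure, with every myeloma line called one way and IM-9 called the other way (limma, Benjamini-Hochberg). The calls by line come from the same arrays as the departure, so passing the test of the difference adds no separate support. With the line as the unit none of these genes was called. The departure was higher in IM-9 for TAF9B (1.78), NOTCH2 (1.31), REEP1 (0.99), FUCA1 (0.83), STAT5B (0.81), SLC23A2 (0.79), PIK3R3 (0.62) and DNAJB11 (0.55). It was lower for PIK3C3 (-0.62), WDR54 (-0.94), MT2A (-1.34), ANKRD37 (-1.45), NREP (-1.79) and DDIT4 (-1.86). With 2 arrays in each group, no search for single deviating arrays was made.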

How the results depend on the processing

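Counts of calls kept within 1.5 times of those reported under other filters, quantile normalization, array weights, an intensity trend and another probe set choice. Centred on medians, 47 opposite genes were lower in IM-9, all among the 74, and the genes with 1 myeloma sign split into 611 higher and 431 lower. With the line as unit, limma called 12 higher and 1 lower, 5 and 0 of these with 1 myeloma sign, and 0 members in each of the HIF, glycolysis, cholesterol, fatty acid, unfolded protein response and mitosis lists. At an unadjusted p under 0.05 these lists had 10, 2, 8, 5, 8 and 3 members in their direction. Over 2 myeloma lines 1 sign is met more easily: without RPMI8226 864 higher and 1152 lower genes met it and 115 opposite genes were lower; without KMS-11 939 and 1056, with 182 and 168 opposite; without U266 877 were higher, and 7 glycolysis and 6 mitosis genes were lower. Departures changed sign without RPMI8226 for LGMN (-0.0235) and IL2RG (0.249), without KMS-11 for TFRC (0.0865) and without U266 for XAF1 (-0.0291); the cause was not tested. Leaving out 1 array gave 1223 to 1878 higher and 1400 to 2165 lower genes, 372 to 552 and 410 to 639 with 1 sign, and 71 to 136 and 47 to 88 opposite; the lists ranged from 21 to 24 (HIF), 10 to 11 (glycolysis), 17 to 17 (cholesterol), 12 to 14 (fatty acid), 9 to 11 (unfolded protein response) and 9 to 15 (mitosis). Among 99 named genes, 61 of 1584 values lost their call, mostly of XAF1, DNAJA1, NDUFB8 and BAD. The labels do not say whether the replicate numbers pair the arrays, and the fit did not pair them. Deviations correlated at 0.20 for RPMI8226, 0.07 for KMS-11, -0.05 for U266 and 0.11 for IM-9, which cannot settle it. With the replicate number as a block 1809 genes were higher and 2167 lower. Dim genes, under 6.27, have compressed differences.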
